A study of Bos taurus with 2 samples.

Results

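Cluster 10 is a group of 1010 of 19096 cultured bovine satellite cells, kept here as the study's own graph-based cluster of that number. Its cells were found by deduction from the deposited cluster averages, which convert into whole numbers of unique molecular identifiers (UMIs, each standing for 1 captured RNA molecule) and so fix the cluster of every cell. The sums over the cells so assigned equalled the deposited averages in all 252240 pairs of gene and cluster, with 0 that differed. The study gave this cluster no cell identity. It held that cluster 10 and some other clusters were not myogenic, since their myogenic markers were not significantly higher than in other clusters. That statement concerned enrichment over other clusters and not the presence of such transcripts. As possibilities it named new cell types or inaccurate clustering.

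The cells came from the longissimus muscle of 1 male Holstein calf aged 2 weeks and were cultured for 1 week in DMEM with 10% fetal bovine serum, without further treatment. From these same cells 2 libraries were prepared on the 10x Genomics platform, called replicates 1 and 2, so every SD below is the spread between 2 library preparations and says nothing of the spread between animals. Replicate 1 held 145631299 UMIs and replicate 2 held 137818568. Levels are UMIs of a gene per 10000 UMIs of the cells named. The clusters were built from these same counts, so a difference between cluster 10 and other cells is given as a description, without a p-value. A gene is counted as higher or lower where its level differed by 2-fold or more in the same direction in both libraries.

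Satellite cells are the resident stem cells of skeletal muscle, which proliferate as myoblasts and then fuse as myocytes into fibers. Muscle also holds fibro-adipogenic progenitors, which can give rise to fat cells. Much of what follows concerns the proteasome, whose genes were low in cluster 10 and in cluster 13. It is the barrel-shaped protease that degrades proteins tagged with ubiquitin. Its core is built from alpha and beta subunits, and its cap from ATPase and non-ATPase subunits. The chaperonin is a ring of related subunits that folds actin and tubulin, and thioredoxin and the peroxiredoxins remove peroxides.

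Replicate 1 contributed 514 cells to cluster 10 and replicate 2 contributed 496, which were 5.17% (95% exact binomial interval 4.74% to 5.63%) and 5.42% (4.96% to 5.90%) of each library. These intervals cover counting error only. The cells were shallow without being the shallowest. Their median was 5432 UMIs in replicate 1 and 5318 in replicate 2, against 14937 and 15498 in all other cells. The range ran from 2111 to 54036 UMIs. The 10 clusters numbered 1 to 6, 8, 9, 11 and 12 had medians of 12670 UMIs or more in both libraries and are called the deep clusters here, while clusters 7, 13, 14 and 15 had lower medians than cluster 10. The cells had a median of 2040.5 and 2034.5 detected genes. After every cell was thinned to 2000 UMIs, which left out no cell of cluster 10 and 1898 cells of other clusters, these medians were 1033.5 and 1034, beside 1041 and 1046 in all other cells. The label of mid-depth cells describes these same UMI totals, so the totals are no independent check of it. Of the cluster 10 cells, 2 had a barcode that occurred in both libraries, and 0 barcodes occurred in cluster 10 of both.

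**Figure D1:**
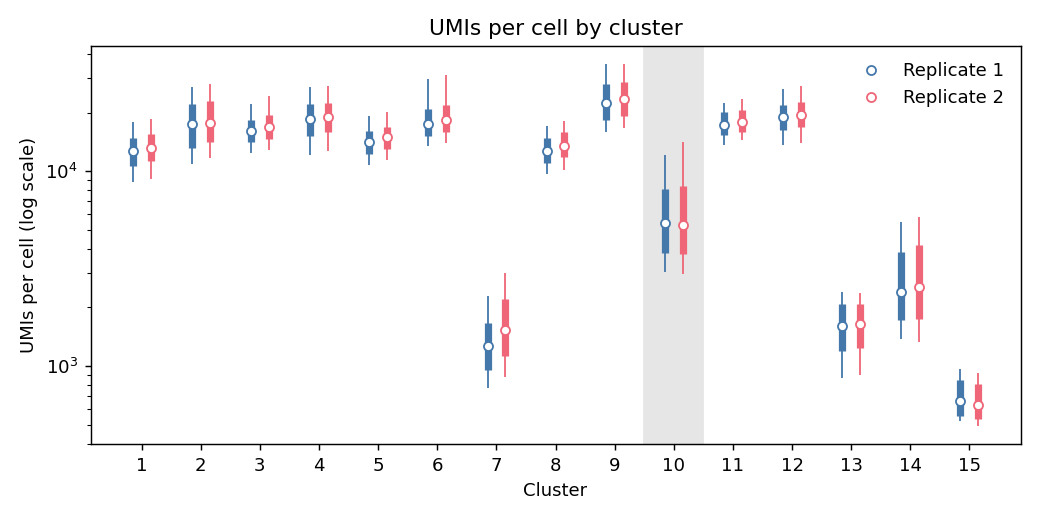
UMIs per cell (log scale) in each of the 15 clusters and both libraries. Circles are medians, thick lines run from the 25th to the 75th percentile and thin lines from the 10th to the 90th. Cluster 10 (grey band), with medians of 5432 and 5318, lies between the 10 deep clusters and clusters 7, 13, 14 and 15.

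The 4 genes given as markers of cluster 10 were all above their level in other cells, but none was highest in cluster 10. LPCAT1, an acyltransferase that remodels phospholipids, had a level of 1.12 in replicate 1 and 1.13 in replicate 2, against 0.438 and 0.447 in all other cells. Clusters 7 and 13 had higher LPCAT1 levels than cluster 10. TSPAN9, a membrane protein of the tetraspanin family, had a level of 1.05 and 1.29 against 0.494 and 0.503, and was most abundant in cluster 12. KIF1C, a motor protein that carries cargo along microtubules, had a level of 1.48 and 1.51 against 0.705 and 0.727, and only cluster 13 had more. These log2 ratios were 1.35 ± 0.01, 1.22 ± 0.19 and 1.06 ± 0.01 (mean ± SD of the log2 ratios, n = 2 libraries). MYOD1, the transcription factor that commits cells to the myogenic lineage, had a level of 5.76 and 5.44 against 4.13 and 3.88, a log2 ratio of 0.48 ± 0.00 that fell short of 2-fold. By the mean of the libraries MYOD1 was higher in clusters 2, 3, 6 and 13 than in cluster 10, and it was lowest in cluster 9, at 0.678 and 0.464.

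Of 9445 genes compared, 64 were 2-fold higher in cluster 10 than in all other cells (0.678%) and 330 were 2-fold lower (3.49%). Most genes moved little, with 90.1% within 2-fold in both libraries and a median log2 ratio of 0.09. The higher genes were scarce ones, with a median level of 0.247 in cluster 10, and 3 of them, LPCAT1, TSPAN9 and KIF1C, reached a level of 1. The lower genes were more abundant, with a median of 0.631 in other cells, and 127 reached a level of 1 there. The balance depended on scaling, since TMM normalization moved the median log2 ratio over all genes from 0.09 to -0.05 and gave 24 higher and 495 lower genes. KIF1C and TSPAN9, at log2 ratios of 0.93 and 1.08 with TMM, then fell short of 2-fold in at least 1 library. Weighting the other 14 clusters equally left 9 higher and 360 lower genes, and LPCAT1, TSPAN9 and KIF1C then had log2 ratios of 0.87, 0.94 and 0.90. Against other cells within the depths of cluster 10 (between its 10th and 90th percentile, from 3014 to 12944 UMIs), 304 genes were higher and 394 lower. Replicate 2 alone gave 138 higher and 522 lower genes, and replicate 1 alone gave 182 and 485.

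**Figure D2:**
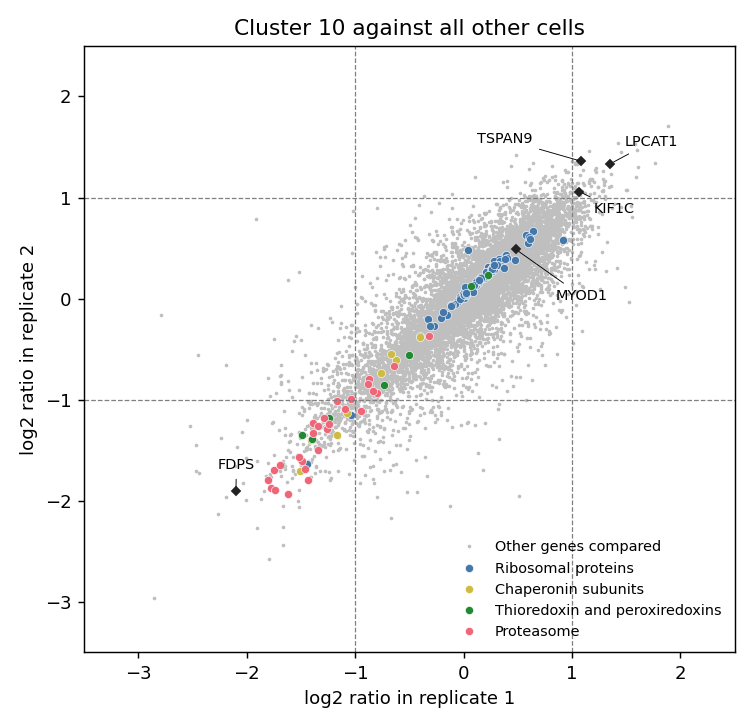
Each point is 1 of the 9445 genes compared, with its log2 ratio of cluster 10 to all other cells in replicate 1 (x axis) and in replicate 2 (y axis). Dashed lines mark 2-fold. The proteasome genes lie toward the lower left, with 19 of 27 past 2-fold in both libraries, while the ribosomal protein genes lie mostly near or above 0.

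All 27 genes of the proteasome list were measured above the filter, and all 27 were below their level in other cells in both libraries. Of these, 19 were 2-fold lower and 0 were 2-fold higher, beside 3.49% and 0.678% of all genes compared. The median log2 ratio of the list was -1.30, beside 0.09 over all genes compared. The summed level of the list was 40.7 in replicate 1 and 38.8 in replicate 2, against 85.4 and 83.5 in other cells. The libraries thus differed by far less than cluster 10 did from other cells. The beta subunits, which carry the cutting sites of the core, made up much of the group. PSMB2 had a level of 0.997 and 0.976 in cluster 10 against 3.48 and 3.39 in other cells, a 3.48-fold lower mean. PSMB7 had 0.705 and 0.629 against 2.36 and 2.35. PSMB6 had 0.832 and 0.839 against 2.79 and 2.73. PSMB3 had 0.603 and 0.609 against 1.95 and 1.92. These beta subunit genes were named because they were 2-fold lower in both libraries, so the agreement of the libraries in them is built in.

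Of 7 alpha subunits 6 were 2-fold lower, and of 7 beta subunits all 7. In the cap, 3 of 6 ATPases and 3 of 7 non-ATPase subunits were 2-fold lower. These counts stand beside 3.49% of all genes. PSMA2, an alpha subunit, had a level of 1.07 and 0.871 in cluster 10 against 2.94 and 2.80. PSMC2, an ATPase that helps unfold substrates, had 0.368 and 0.338 against 1.26 and 1.24, the most negative log2 ratio of the list at -1.82 ± 0.07 (SD, n = 2 libraries). PSMC4, another ATPase, had 0.441 and 0.343 against 1.35 and 1.32. The group was not lowered evenly. PSMA7, an alpha subunit and the most abundant member at a mean level of 8.89, had a log2 ratio of -0.35, the smallest change in the list. PSMG1, a chaperone of core assembly, was also lower, at 0.441 and 0.379 against 1.32 and 1.25. Of 9 genes for assembly factors and activators, 2 were 2-fold lower (PSMG1 and PSME2), beside 3.49% of all genes. That list was drawn up after the values had been seen. PSME3, a subunit of a nuclear activator, had its largest log2 ratio, 0.29.

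Cluster 10 shared this feature with 1 other cluster. The summed proteasome level was 37.4 and 37.0 in cluster 13, while it was 63.8 and 63.3 in cluster 7, the next lowest, and up to 108 and 106 in cluster 15. Clusters 7, 14 and 15 were all shallower than cluster 10, and cluster 14 had 95.5 ± 0.67 (SD, n = 2 libraries). In cells of 2000 to 8000 UMIs the level was 38.4 over 741 cells of cluster 10, 94.0 over 274 cells of cluster 14 and 74.9 over 147 cells of cluster 1. In such cells of replicate 1, the median per cell was 39.8 in 381 cells of cluster 10 and 77.8 in 183 cells of the deep clusters, and 99.2% of the former lay below the median of the latter. In replicate 2 these medians were 36.5 in 360 cells and 79.2 in 154 cells, with 99.4% below. The share of cells with a UMI was computed for 1 proteasome gene, PSMB2, in 7 clusters. After thinning to 2000 UMIs, PSMB2 had a UMI in 16.1% and 14.7% of cluster 10 cells in replicates 1 and 2, in 48.2% and 48.0% of cluster 1 cells, and in 17.8% and 22.4% of the 101 and 76 cells of cluster 13 that were deep enough. The other 4 clusters, 3, 8, 9 and 12, ran from 41.3% to 55.1%. Without thinning these were 41.8% and 42.1% in cluster 10 and 97.2% in each library of cluster 1, and 13.5% and 16.1% in cluster 13.

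Within cluster 10 the level hardly moved with depth. When the cells of each library were ranked by UMIs and cut into 3 groups of nearly equal size, the proteasome level was 39.9 and 37.9 in replicates 1 and 2 in the shallowest, 40.6 and 36.4 in the middle and 41.0 and 39.8 in the deepest. The groups overlapped, and the libraries differed by as much as the groups did. The groups had median depths of 3361.5, 5437 and 9506 UMIs in replicate 1. The 10th and 90th percentile of single cells in the whole cluster were 26.1 and 52.5.

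**Figure D3:**
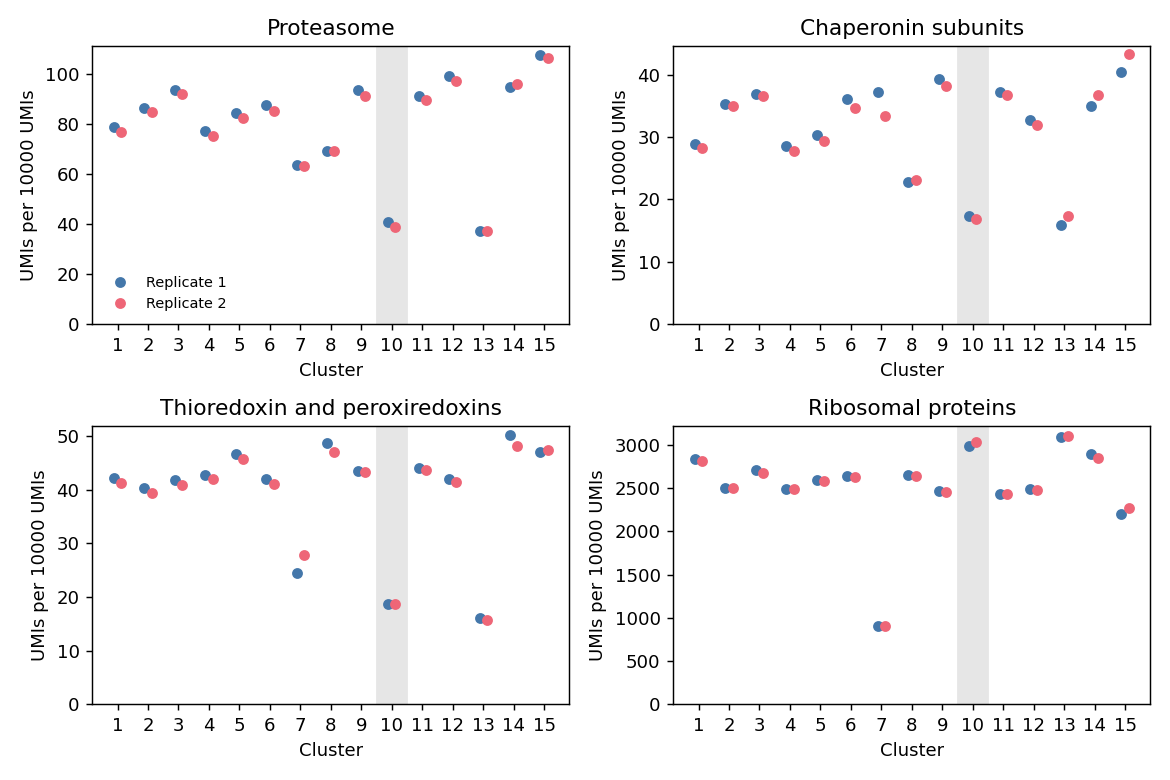
Summed levels (UMIs per 10000 UMIs) of 4 gene lists in each of the 15 clusters, 1 point per library. Clusters 10 (grey band) and 13 have the lowest proteasome, chaperonin, and thioredoxin and peroxiredoxin levels and the highest ribosomal protein levels.

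Some chaperonin and redox genes were lower too, beside 3.49% of all genes compared. These lists were drawn up after single members had been seen among the lower genes, so their counts only describe. Of the 8 chaperonin subunits, 4 were 2-fold lower (CCT2, CCT5, CCT7 and CCT8), and the remaining 4 were below their level in other cells as well, with a median log2 ratio of -0.93. CCT8 had a level of 1.42 and 1.18 in cluster 10 against 4.02 and 3.86, and CCT4, the least changed, had 2.36 and 2.32 against 3.13 and 3.03. Summed over the subunits, cluster 10 had 17.3 and 16.8 and other cells 33.1 and 32.4. Of the 8 thioredoxin and peroxiredoxin genes, 4 were 2-fold lower. TXN, thioredoxin itself, had 3.83 and 3.75 against 12.3 and 11.7, while its reductase TXNRD1 was slightly above other cells, at 1.11 and 1.08 against 0.946 and 0.926. The mitochondrial PRDX3 was likewise near other cells, at 1.06 and 1.05 against 1.01 and 0.964. In both lists cluster 13 was lowest and cluster 10 next.

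Among 13 heat shock and chaperone genes, 3 were 2-fold lower (HSP90AA1, HSPD1 and CRYAB) and 0 higher, beside 3.49% and 0.678% of all genes, with a median log2 ratio of -0.56. HSP90AA1, a cytosolic chaperone, had a level of 14.5 and 13.9 in cluster 10 against 37.8 and 36.1. HSP90AB1, the most abundant gene of the list, stood at a mean of 24.1 and was not 2-fold lower. BAG3, a co-chaperone induced by stress, had the largest log2 ratio of the list at 0.07. The polyubiquitin gene UBB was also 2-fold lower, at 3.09 and 3.15 against 10.7 and 10.5. RPS27A, which encodes ubiquitin fused to a ribosomal protein, had a log2 ratio of 0.12.

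The most negative log2 ratio of a gene with a level of 1 or more in other cells belonged to FDPS, which makes farnesyl pyrophosphate for cholesterol and protein prenylation. It had 0.443 and 0.509 in cluster 10 against 1.91 in both libraries of other cells. It was the 1 gene of 17 on the cholesterol synthesis list that was 2-fold lower, a share near the 3.49% of all genes, and the median log2 ratio of the list was -0.16. The other genes among the 15 with the most negative ratios were MDH1, the cytosolic malate dehydrogenase (0.832 and 0.754 against 2.69 and 2.55), MRPS14, a mitochondrial ribosomal protein (0.400 and 0.423 against 1.27 and 1.29), and TNNC2, the troponin C of fast muscle (1.45 and 1.64 against 5.05 and 5.09). TNNC2 differed from the rest in that cluster 10 was near the middle of the 15 clusters, at rank 9, whereas MDH1 and MRPS14 were lower in cluster 13 alone and FDPS was lowest in cluster 10. The log2 ratio of TNNC2 ran from -2.07 to -0.92 over the settings tried, so its 2-fold call was lost in at least 1. Of the 330 lower genes, 72 were lowest in cluster 10 and 205 in cluster 13.

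Ribosomal protein genes, which encode the protein part of the ribosome, had a summed level of 2992 and 3039 in cluster 10 against 2589 and 2572 in other cells, a share second to that of cluster 13. Of 83 genes compared, 0 were 2-fold higher and 2 lower, shares near the 0.678% and 3.49% of all genes. In both libraries 66 were above and 15 below other cells, and the median log2 ratio was 0.20, or 0.06 with TMM. RPS12, the most abundant, had a level of 151 and 150 against 101 and 97.1. The elongation factor EEF2 had 22.2 and 21.9 against 17.3 and 17.5. Several abundant genes outside the translation machinery were also above other cells without reaching 2-fold. TMSB10, which binds monomeric actin, had 87.0 and 88.8 against 66.1 and 66.5. IGF2, a growth factor of developing muscle, had 15.6 and 18.7 against 8.29 and 10.7. IGF2 was picked after its values had been seen.

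Some genes were highest of all in cluster 10. They numbered 9 of the 64 higher genes, all with levels under 1, while 18 were highest in cluster 13. How many of all genes compared were highest in cluster 10 was not counted. Cluster 13 held 573117 and 421753 UMIs in replicates 1 and 2, so at such levels a rank against it rests on few counts. Of 4832 genes that could be compared directly with cluster 13, only HCCS and RNF168 were 2-fold higher in cluster 10. The genes named next were picked after their values had been seen. AXIN1, a scaffold of the complex that degrades beta-catenin, had 0.346 and 0.350 against 0.127 and 0.128 in other cells. TOLLIP, an adaptor of Toll-like receptor signaling, had 0.503 and 0.511 against 0.206 and 0.214. LRP3, a receptor of the low density lipoprotein receptor family, had 0.327 and 0.252 against 0.0966 and 0.0997. The libraries lay apart for LRP3, whose count as a higher gene itself required 2-fold in both. The largest log2 ratio of the higher genes, 1.80, belonged to ENG, a co-receptor for TGF-beta, at 0.438 and 0.399 against 0.119 and 0.122, yet ENG was more abundant in cluster 9.

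No gene of the matrix and integrin lists passed 2-fold in both libraries. The median log2 ratio was 0.32 over 19 collagen and matrix genes and 0.38 over 10 integrin genes. BGN, a matrix proteoglycan outside both lists, was higher, at 0.913 and 0.910 against 0.391 and 0.373. The matrix median was -0.06 when the other clusters were weighted equally. ITGA5, a subunit of the fibronectin receptor, had 1.97 and 1.91 against 0.947 and 0.990, a log2 ratio of 1.00. Actin cytoskeleton genes had a median of -0.27, with LGALS1, MYL6 and MYL12A 2-fold lower among 19, beside 3.49% of all genes. LGALS1, a secreted lectin abundant in mesenchymal cells, had 4.88 and 5.15 against 13.6 and 13.2.

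Myogenic genes were present in cluster 10 at levels near those of other cells. The 12 myogenic regulators summed to 14.4 ± 0.49 against 13.2 ± 0.28 (SD, n = 2 libraries). DES, which encodes the intermediate filament desmin, had 4.39 and 5.27 against 4.62 and 4.46, so that the libraries fell on either side of other cells. MYF5, an early myogenic factor, had 0.616 and 0.602 against 0.989 and 0.932. MYOG, which drives differentiation, had 1.38 and 1.50 against 2.12 and 2.15, and its log2 ratio ran from -0.90 to 0.09 over the settings tried. The satellite cell factors PAX7 and PAX3 were close to undetected, with 2 and 0 UMIs for PAX7 and 5 and 4 UMIs for PAX3 in the libraries of cluster 10. Both were also scarce in other cells. PAX3 had a level of 0.0135 and 0.00979 against 0.0107 and 0.0116, and PAX7 had 0.00648 and 0.00613 in other cells. After thinning to 2000 UMIs, MYOD1 had a UMI in 57.0% and 54.6% of cluster 10 cells. For comparison, the share was 58.1% and 56.9% in cluster 1, and 10.1% and 6.07% in cluster 9, whose median depth was higher than that of cluster 10 before thinning. Unthinned, the shares were 81.5% and 75.2% in cluster 10 and 39.6% and 36.2% in cluster 9. Of 21 muscle structure genes compared, 8 were 2-fold lower (TNNC2, MYLPF, ACTC1, TNNC1, ACTA1, MYL4, TNNI2 and CKM) and 0 higher, beside 3.49% and 0.678% of all genes, with a summed level of 20.8 and 22.8 against 48.6 and 49.3. The sum in other cells rested largely on clusters 3 and 12, and the medians of single cells lay closer together, at 12.2 and 13.6 in cluster 10 and 13.8 and 14.9 in the deep clusters. The median log2 ratio of the list was -0.85 and ran from -1.60 to -0.26 over the settings tried.

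Genes of other cell types gave cluster 10 no single identity. PDGFRA, the receptor that marks fibro-adipogenic progenitors, had 0.532 and 0.472 against 0.315 and 0.300, and 0 of 9 genes of that list passed 2-fold in both libraries. The list's median log2 ratio was 0.58 and ran from -0.18 to 1.25 over the settings tried, while its summed level was below other cells, at 8.94 and 8.61 against 10.7 and 10.5. Much of that sum was DCN, a matrix proteoglycan and its most abundant gene, at 5.32 and 4.90 against 7.12 and 6.91. The 9 endothelial markers summed to 0.0189 and 0.0245, with CDH5 and PECAM1 at 0 UMIs, and CLDN5 the most abundant at 0.0129. A count of 0 among the 7787977 UMIs of cluster 10 allows a level of up to 0.00385. The 9 immune markers summed to 0.0486 and 0.0440, led by CD68 at 0.0294. The 7 glial markers summed to 0.405 and 0.374, of which S100B made up 0.355, while FOXD3 and SOX10 were at 0 UMIs. The pericyte and smooth muscle list summed to 4.91 and 4.28, mostly from ACTA2, the actin of smooth muscle, which had 3.47 and 2.98 against 6.87 and 6.77 in other cells. NOTCH3 had 0.511 and 0.538 against 0.352 and 0.371, MCAM was at 0 UMIs, and MYH11 had 4 and 2 UMIs. Among fibroblast markers of the study, COL1A1 had 38.5 and 35.1 against 33.1 and 33.3, and S100A4 was 2-fold lower, at 2.79 and 2.71 against 7.50 and 7.34. The 5 measured markers of mature adipocytes summed to 0.0811 and 0.0612.

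Cycling genes were present, with summed levels somewhat below those of other cells. Of 52 genes of the G2/M phases, 5 were 2-fold lower, beside 3.49% of all genes compared, with a summed level of 55.7 and 49.5 against 65.7 and 64.3, and of 41 S phase genes 2 were lower, a share near that of all genes, with 22.5 and 21.5 against 26.6 and 26.1. CENPF, a centromere protein, was the most abundant G2/M gene at 6.95. The G2/M medians of single cells went the other way from the sums, at 45.4 and 42.1 in cluster 10 and 36.3 and 36.9 in the deep clusters. The median log2 ratios, -0.23 for G2/M and -0.18 for S phase, changed sign when cells of like depth were compared, to 0.27 and 0.44. That comparison also changed the mix of clusters, with 1255 and 577 of its 3712 other cells from clusters 1 and 8. The G2/M levels of these clusters as a whole were 18.44 and 18.11, and 13.28 and 13.25. Whether depth or this mix moved the medians was not tested.

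In the remaining lists few genes passed 2-fold, to be read beside the 0.678% of all genes that were higher and the 3.49% that were lower. The medians were 0.13 for 14 immediate early genes, -0.12 for 12 genes of endoplasmic reticulum stress, 0.23 for 7 p53 targets and -0.03 for 16 lysosome and autophagy genes, with 0 past 2-fold in each. Glycolysis genes had a median of -0.34, and GAPDH a level of 26.6 and 27.1 against 33.9 and 35.7. Genes of the respiratory chain encoded in the nucleus had a median of -0.32, with ATP5F1B 2-fold lower among 24, and splicing factors had -0.39, with SRSF7 and SRSF11 lower among 20. Translation elongation and initiation factors had a median of -0.14, with EIF4A1 lower among 18. Around the marker genes themselves, KIF1C was the sole higher gene of 13 transport kinesins, LPCAT1 of 13 lysophospholipid acyltransferases and TSPAN9 of 16 tetraspanins. Of those lists, KIF3A, CD63 and TSPAN6 were lower. Mitochondrially encoded transcripts and nuclear long non-coding RNAs were not analysed here, so RNA quality was not assessed through them.

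Cluster 10 most resembled cluster 13. Across the genes compared, Spearman's rho of their levels was 0.963 and 0.954 in replicates 1 and 2 (Pearson's r 0.955 and 0.947), where genes are not independent and counting noise is shared with depth. Clusters 6 and 5 followed with 0.945 in both libraries and with 0.941 and 0.940. Of the 4832 genes that could be compared between clusters 10 and 13, 2 were 2-fold higher in cluster 10, HCCS and RNF168, and 0 were lower. When each cell was placed by its UMI counts with the most likely cluster profile, 881 of the 1010 cells (87.2%) fell back into cluster 10, whose profile was summed from these same cells, so that part of this return is built in. Of the cells of other clusters, 85 fitted cluster 10 best. With cluster 10 left out of the choice, 827 (81.9%) fell into cluster 13, and 45 and 31 into clusters 9 and 8.

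The cells of cluster 10 were of several kinds. Clustering them on their own gave 5 sub-clusters of 273, 238, 203, 174 and 122 cells, each drawn from both libraries. Sub-cluster 1, with 147 and 126 cells, was led by MATN2, PRSS23 and GJA1, the last a gap junction protein, and had the highest level of COL1A1, at 54.6 and 61.2 in the libraries. Sub-cluster 2 was led by mitotic genes such as CDCA8, BUB1B and ASPM. MKI67, the marker of cycling cells, had a mean level of 7.11 there and of 1.59 in sub-cluster 5. Sub-cluster 5 was led by IGF2 at 38.2 and also had the most MYOD1, at 11.5. The leading genes helped to make these groups, so they are given as a description. Genes named for a sub-cluster were picked after their values had been seen, apart from the cell type markers.

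Sub-cluster 3 was led by CXCL12, BGN and CCL2. CXCL12, a chemokine on the fibro-adipogenic marker list, had a level of 0.937 and 0.767 there, against 0.0148 and 0.0231 in the remaining cells of cluster 10. BGN had 3.19 and 3.26 against 0.0775 and 0.0924. INHBA, a subunit of activin, had 3.11 and 2.37 against 0.0812 and 0.109. PDGFRA had 1.18 and 1.27 against 0.295 and 0.195. Further genes of the fibro-adipogenic list differed among themselves. PPARG, the regulator of fat cell formation, had its highest mean level in sub-cluster 3, at 0.193. Its libraries lay apart there, at 0.121 and 0.265 from 12 and 28 UMIs. DCN was most abundant in sub-cluster 1, at a mean level of 6.25 beside 5.95 in sub-cluster 3, as was LUM, a related proteoglycan, at 3.29 beside 2.79, and ZNF423 had 0.111 and 0.104 in sub-cluster 3 against 0.0923 and 0.0495. ITGA5 had a mean level of 4.78, against 0.562 to 1.54 in the other sub-clusters. In cluster 9, which the study took for preadipocytes, CXCL12 had 0.970 and 0.962, BGN 3.25 and 3.16, PDGFRA 1.63 and 1.53 and DCN 9.47 and 9.03. CXCL5 and CCL2 were lower in sub-cluster 3 than in cluster 9, at 3.56 and 4.82 against 8.60 and 8.92 and at 1.60 and 1.53 against 5.03 and 4.64. Of the 203 cells, 101 (49.8%) were closest to cluster 9 among the deep clusters, and with all 14 other clusters open to choice 148 (72.9%) were closest to cluster 13 and 45 (22.2%) to cluster 9.

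Sub-cluster 4 was myocyte-like by markers. MYOG had a level of 5.17 and 4.59 there against 0.619 and 0.643 in the remaining cells of cluster 10. MYH3, the embryonic myosin heavy chain, had 2.15 and 2.43 against 0.181 and 0.222. MYMK, which fuses myoblasts, had 0.439 and 0.814 against 0.0357 and 0.0375. ACTC1, the actin of developing muscle, had 27.3 and 21.3 against 5.30 and 5.79. In cluster 3, which the study took for myocytes, MYOG had 6.60 and 6.76, MYH3 1.25 and 1.29 and ACTC1 61.0 and 59.2. All were higher again in cluster 12, where MYOG had 18.1 and 19.2. Among the deep clusters, 90 of the 174 cells (51.7%) were closest to cluster 3 and 14 (8.05%) to cluster 12. With all 14 other clusters open to choice, 141 were closest to cluster 13, 16 (9.20%) to cluster 3 and 11 (6.32%) to cluster 12. LPCAT1 and TSPAN9 split along these lines, since LPCAT1 was highest in sub-cluster 3, at 1.50, and lowest in sub-cluster 4, at 0.645, while TSPAN9 was highest in sub-cluster 4, at 2.54, and lowest in sub-cluster 1, at 0.415. KIF1C ranged from 1.27 to 1.72 over all 5.

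**Figure D4:**
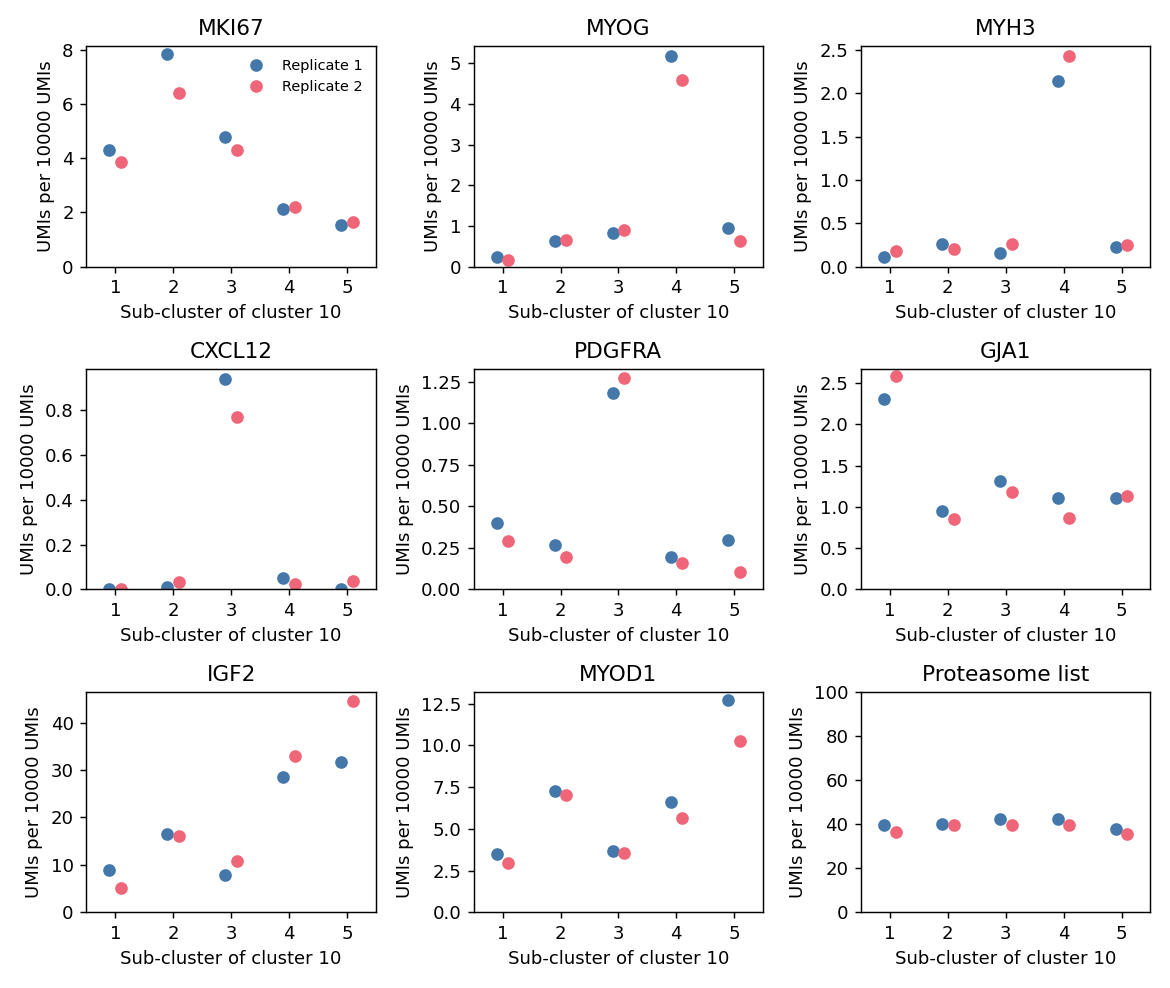
Levels (UMIs per 10000 UMIs) of 8 genes and of the summed proteasome list in the 5 sub-clusters of cluster 10, 1 point per library. MYOG and MYH3 are highest in sub-cluster 4, CXCL12 and PDGFRA in sub-cluster 3 and MKI67 in sub-cluster 2, while the proteasome level runs only from 36.5 to 41.1 (mean of the libraries).

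The low proteasome level was common to all 5. By mean of the libraries it was 37.9, 39.8, 40.9, 41.1 and 36.5 in sub-clusters 1 to 5, and the chaperonin level ran from 15.6 to 18.2. The muscle structure list, by comparison, ran from 8.94 in sub-cluster 1 to 54.9 in sub-cluster 4. Cells of cluster 10 were also grouped by the deep cluster whose profile they fitted best, which puts each beside its nearest counterpart. In all 10 such groups and in both libraries the proteasome level was below that of the deep cluster itself. The 54 and 47 cells closest to cluster 9 had 42.1 and 37.7, against 93.5 and 91.4 in cluster 9. The 48 and 47 cells closest to cluster 3 had 44.0 and 38.8, against 93.5 and 92.0. The 109 and 115 cells closest to cluster 1 had 38.9 and 39.2, against 78.8 and 76.9. The groups closest to clusters 11 and 12 held few cells, from 6 to 19 per library. Their libraries lay apart, at 46.25 and 52.62 and at 48.09 and 35.8. So did those of the group closest to cluster 2, at 44.86 and 37.58. Muscle structure genes had 63.6 and 66.3 in the cells closest to cluster 3, against 111 and 107.5 in that cluster, and 5.62 and 7.06 in those closest to cluster 9, against 9.93 and 9.28. In the few cells closest to cluster 12 they had 187 and 130.3, against 362.9 and 358.8. The cells were assigned by their fit to these profiles, so part of the likeness in such genes is built in.

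**Figure D5:**
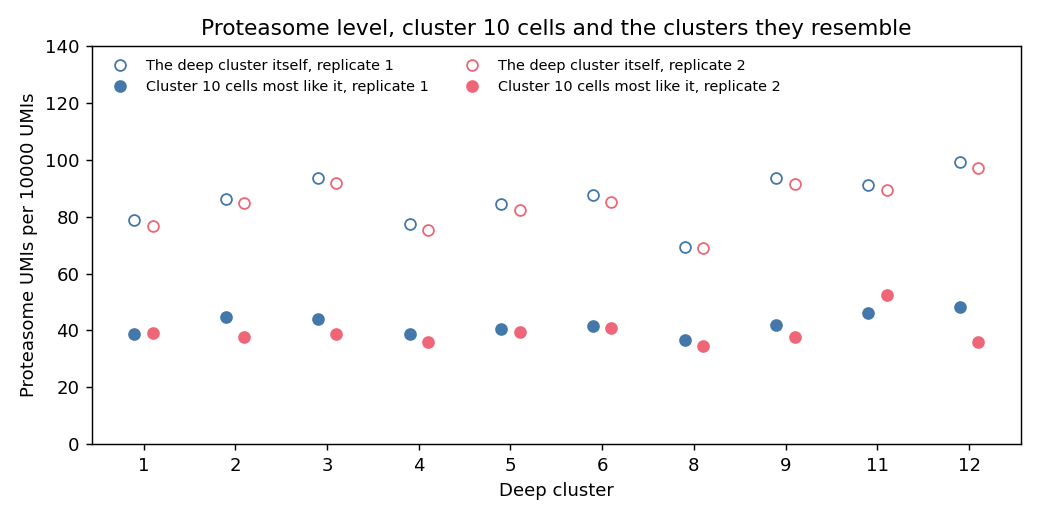
Summed proteasome level (UMIs per 10000 UMIs) in each of the 10 deep clusters (open circles) and in the cluster 10 cells that fitted that cluster best (filled circles), 1 point per library. Every filled circle lies below the open circle of its library, for instance 42.1 against 93.5 for cluster 9 in replicate 1.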

How the data were processed

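Libraries 1 and 2 of the same cultured cells were used, each cell taking its library from the number that ends its barcode. The deposited counts are whole UMI counts per gene and cell, which the authors made with Cell Ranger 3.0.2 (build ARS-UCD1.2, with reads thinned until both libraries had equal mapped depth per cell). The authors also deposited cluster averages, scaled to a common total per cell, used only to deduce each cell's cluster in 32 rounds. Their fold changes and p-values were not used.

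The choice of members, gene lists and rules was made with earlier results of these data known. UMIs were summed per library over cluster 10 and over all other cells, 0.5 UMI was added to each sum, and log2 ratios of shares were taken within a library. Genes were compared where at least 10 UMIs were expected in cluster 10 in each library from their share in all cells. Named genes were the 15 with the largest and the 15 with the most negative ratios past 2-fold with a level of at least 1 (3 qualified as higher), the given markers, the study's lineage markers, and the most abundant and extreme members of lists. Sub-clusters used Leiden clustering in scanpy 1.11.5 (2000 variable genes, 10 principal components, 15 neighbours, resolution 0.5). Intervals are exact binomial at 95%. The count ratios were tested on simulated data. Alternatives included TMM factors from edgeR 4.0.16, other filters and other choices of cells. Doublets were kept, as the study's text describes no removal. Gene symbols that several genes share are counted once per gene.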

Additional observations from a re-analysis of the deposited data

How the results depend on the processing

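The number of genes 2-fold lower in cluster 10, 330, stayed within 1.5 times under all alternatives but 1, running from 271 to 495 with both libraries and from 485 to 522 with either library alone. The number of higher genes, 64, did not. It was 24 with TMM, 33 with median-of-ratios size factors, 26 where 50 UMIs were expected, 129 where 2 were, 9 with the other clusters weighted equally, 304 in cells within the depths of cluster 10 and from 138 to 182 with either library alone. The stricter filter tested 6275 genes and the looser one 11561. With either library alone the rule asks for 2-fold in that library only, so the counts could not fall. All 64 higher and all 330 lower genes were kept there, and 192 and 347 genes passed 2-fold in 1 library only. The cause of the remaining shifts was not tested. The number of higher genes was 71 without cells under 2000 UMIs and 50 with each cell in its best fitting profile. Alternatives chosen after seeing the data gave 66 without cluster 13, 77 without clusters 7, 13, 14 and 15, and 81 against the deep clusters mixed by likeness. The automatic Scrublet threshold marked 1 cell and so did not work, and leaving out the 8% of cells with the highest scores in each library instead (2.38% of cluster 10 and 8.32% of other cells) gave 80. The genes called also varied. In cells within the depths of cluster 10, 254 of the 330 lower and 55 of the 64 higher genes were kept, among 394 and 304. With the other clusters weighted equally 289 and 9 were kept, and with TMM 330 and 24. The proteasome median stayed between -1.44 and -1.20, with 18 to 21 of 27 genes 2-fold lower in every setting. The medians of the matrix, myogenic, fibro-adipogenic, S phase and G2/M lists took both signs over the settings. So did the log2 ratios of MYOG (-0.90 to 0.09), DES (-0.12 to 0.44), NOTCH3 (-0.05 to 0.59) and COL1A1 (-0.10 to 0.22). At resolution 1, sub-clustering gave 10 groups, of which the largest piece held 42.1% of sub-cluster 1, 68.9% of sub-cluster 2, 54.7% of sub-cluster 3 (with 43.8% in a second piece), 73.6% of sub-cluster 4 and 54.1% of sub-cluster 5. Ratios were taken within each library throughout, and no test was made. With 1 calf, the spread between animals is unknown.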
